A study of Mus musculus with 2 samples.

Results

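The 6 globin genes and 3 other red cell genes were followed in ureters of mouse embryos that expressed an added T-box factor, Tbx2. The 9 genes were chosen by name, as all probes whose gene name in the scanner files was Hba-x, Hbb-bh1, Hbb-y, Hba-a1, Hbb-b1, Hbb-b2, Alas2, Slc4a1 or Klf1. They are 9 of 31791 distinct gene names on the array and were measured by 10 probes, since Hbb-y had 2. Ureters were dissected from male NMRI embryos at E13.5. The control genotype was Tbx18(+/+);Hprt(Tbx2/Y) and the gain-of-function genotype, called Tbx2-GOF, was Tbx18(cre/+);Hprt(Tbx2/Y). Both genotypes therefore carried Tbx2 at Hprt on the X chromosome, and the Tbx2-GOF embryos alone also carried cre at 1 Tbx18 allele, a gene active in the mesenchyme around the ureteric epithelium. There were 2 arrays of 2 colours, each with 1 extract per genotype. On array 1 the Tbx2-GOF extract carried AlexaFluor647 (red) and the control AlexaFluor555 (green), and on array 2 the dyes were exchanged. The labels do not state whether embryos were pooled or whether the extracts of the arrays were independent. Every SD below therefore describes the difference between a pair of arrays (n = 2). The p-values rest on the same pair, with a variance that the test partly pools over all tested probes. Both may reflect technical spread alone.

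Haemoglobin is built of α-like and β-like chains, whose genes lie in separate clusters on mouse chromosomes 11 and 7. The first red cells, made in the yolk sac, use embryonic chains: Hba-x encodes the α-like zeta chain, and Hbb-y and Hbb-bh1 encode β-like chains. Red cells made later in the foetal liver use the adult-type α chain (Hba-a1) and β chains (Hbb-b1, Hbb-b2), and cells of both kinds circulate together for a time in mid-gestation. Alas2 encodes the red cell form of the first enzyme of heme synthesis, Slc4a1 encodes band 3, the anion exchanger of the red cell membrane, and Klf1 encodes an erythroid transcription factor that binds CACCC boxes and activates adult β-globin.

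Sequences immediately before the transcription start show which KLF1-type and GATA-type words the member genes have near their starts, and are those of RefSeq on GRCm38.p6. Promoter entries were matched for 5 of the 9 genes by symbol (Hba-a1, Hba-x, Hbb-y, Alas2, Klf1), and for Hbb-b1 through its probe's transcript accession, which the RefSeq table now lists under Hbb-bt. Hbb-b2, Hbb-bh1 and Slc4a1 were not matched. Each run below is the 150 bases that end at the base before the start, 5′ to 3′ on the gene's strand. Capitals mark matches, on either strand, to the KLF1-type words CCNCNCCC and CACCC, to the GATA-type words AGATAA and AGATAG as well as TGATAA and TGATAG, to the TATA-type word TATAAA and to the word CCAAT. The word CACCC lies inside some matches of CCNCNCCC. The intervals are chr11:32276450-32276599 (plus strand) for Hba-x, chr7:103853208-103853357 (minus) for Hbb-y, chr11:32283522-32283671 (plus) for Hba-a1, chr7:103813924-103814073 (minus) for Hbb-bt, chrX:150547267-150547416 (plus) for Alas2 and chr8:84901832-84901981 (plus) for Klf1.
Hba-x: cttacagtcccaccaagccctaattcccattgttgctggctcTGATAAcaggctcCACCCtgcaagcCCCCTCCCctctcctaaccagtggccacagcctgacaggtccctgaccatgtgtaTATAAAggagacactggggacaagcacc
Hbb-y: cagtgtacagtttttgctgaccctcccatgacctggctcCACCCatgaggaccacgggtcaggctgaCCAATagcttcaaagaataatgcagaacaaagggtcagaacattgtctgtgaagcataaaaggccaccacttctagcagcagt
Hba-a1: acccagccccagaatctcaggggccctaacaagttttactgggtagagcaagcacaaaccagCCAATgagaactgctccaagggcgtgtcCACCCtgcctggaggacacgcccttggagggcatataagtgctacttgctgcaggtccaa
Hbb-bt: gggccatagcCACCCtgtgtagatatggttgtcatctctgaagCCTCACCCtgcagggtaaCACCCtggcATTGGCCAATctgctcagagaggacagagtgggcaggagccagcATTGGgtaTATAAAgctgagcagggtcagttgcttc
Alas2: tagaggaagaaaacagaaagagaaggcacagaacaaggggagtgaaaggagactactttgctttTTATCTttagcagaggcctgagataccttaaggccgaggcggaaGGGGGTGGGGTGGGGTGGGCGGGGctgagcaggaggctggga
Klf1: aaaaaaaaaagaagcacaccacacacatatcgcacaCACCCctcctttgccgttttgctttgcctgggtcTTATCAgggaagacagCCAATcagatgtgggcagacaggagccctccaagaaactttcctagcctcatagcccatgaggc

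In the whole window, 250 bases before to 50 bases after the start, CACCC occurred 3 times in the adult-type β-globin entry Hbb-bt, at first bases -140, -104 and -89 counted back from the start. It occurred at -111 alone in the embryonic Hbb-y, at -198 and -95 in Hba-x, and at -167 and -60 in Hba-a1. Alas2 also had 3 matches, at -40, -35 and -30 on the other strand, and Klf1 had 2, at -114 and, on the other strand, from base 29 after the start. The longer word CCNCNCCC had 1 match in Hbb-bt, 1 in Hba-x and 4 overlapping matches in Alas2, and had none in Hbb-y, Hba-a1 and Klf1. These words are common: CACCC was present in 57.5% and CCNCNCCC in 49.5% of 32851 promoters of the same length. A GATA word was matched in every entry but Hbb-bt, with 2 in Hba-x and 1 each in Hba-a1, Hbb-y, Alas2 and Klf1, against 29.8% of all promoters with any of the 4 words. By single word these shares were 11.2% for AGATAA, 8.95% for AGATAG, 9.05% for TGATAA and 7.29% for TGATAG. The TATA-type word was matched at -28 in Hba-x and Hbb-bt and at -209, on the other strand, in Alas2 (13.6% of all promoters) and CCAAT in Hba-a1, Hbb-bt, Hbb-y and Klf1 (37.4%). A match describes letters in this window and says nothing about binding of a factor.

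The identity of a globin reading rests on 60 bases of probe, and 4 of the probes are given here as the scanner files list them, in lower case throughout.
Hba-x: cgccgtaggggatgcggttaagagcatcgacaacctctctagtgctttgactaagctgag
Hbb-y: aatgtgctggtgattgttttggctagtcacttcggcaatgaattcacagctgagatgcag
Hba-a1: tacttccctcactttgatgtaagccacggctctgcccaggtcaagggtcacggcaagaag
Hbb-b2: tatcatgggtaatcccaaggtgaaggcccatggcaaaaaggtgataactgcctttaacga
The Hba-a1 probe is listed in the files against both adult α-globin transcripts, as is the separate probe named Hba-a2, so the copies of the α gene cannot be told apart. The Hbb-b1 and Hbb-b2 names belong to adult β-globin genes. The transcript of the Hbb-b1 probe is now listed under Hbb-bt, while that of the Hbb-b2 probe keeps its name. The labels do not state which adult β-globin genes the NMRI embryos carried, so these probes may not match the copies present. Cross-hybridisation between the copies was not tested.

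Ratios are given as log2 of Tbx2-GOF over control, normalized within each array, so that negative means lower in Tbx2-GOF; the mean ± SD is over the 2 arrays. Levels are normalized log2 intensities of 1 probe, brought to a common distribution of brightness on the 2 arrays. Apart from sums over lists, they are not compared between probes. Whether levels overlap between arrays depends on that further step. Tests are limma's moderated test across 26472 probes that were well above background in either RNA on both arrays, with Benjamini-Hochberg adjustment and a threshold of 0.05. All 10 member probes were well above background in both RNAs on both arrays, and none was saturated. As a check of the tissue, 13 of 14 markers of ureteric epithelium and mesenchyme were retained and well above background in both RNAs on both arrays. Tbx2 itself had ratios of 0.04 and 0.56 (0.30 ± 0.37, limma adjusted p = 0.794). The files do not tell whether the added allele holds the stretch this probe reads, so it checks nothing. Tbx18, given because cre lies at its locus, was at -0.31 and -0.59 (adjusted p = 0.320).

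No member probe passed the adjusted threshold in either direction: limma called 0 of 10, against 0.174% of all tested probes called lower and 0.246% called higher. At an unadjusted p under 0.05, 5 of 10 were lower in Tbx2-GOF (Hba-a1, Hbb-b2, Alas2, Slc4a1 and Klf1) and 0 were higher, against 3.39% and 5.12% of all tested probes. The same 5 genes of 9 were lower on both arrays, against 24.8% of all tested probes, and 1 gene, Hbb-bh1, was higher on both, against 25.1%. The 3 others, Hba-x, Hbb-y and Hbb-b1, lay on opposite sides on the 2 arrays. None reached 1.5-fold on both arrays, which 0.484% of tested probes did downward and 0.759% upward. For 4 of 10 probes (Hba-a1, Hbb-b2, Slc4a1, Klf1) both Tbx2-GOF levels lay below both control levels, against 16.3% of tested probes. Hba-a1 stands in these counts by the probe of that name alone. The probe named Hba-a2, listed against the same transcripts, was at 0.11 on array 1 and -0.59 on array 2. Over the 9 genes the medians of arrays 1 and 2 were -0.18 and -0.40, and over all tested probes -0.01 and 0.01. In extracts of whole tissue, fewer cells of a type and less RNA per cell cannot be told apart.

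**Figure D1:**
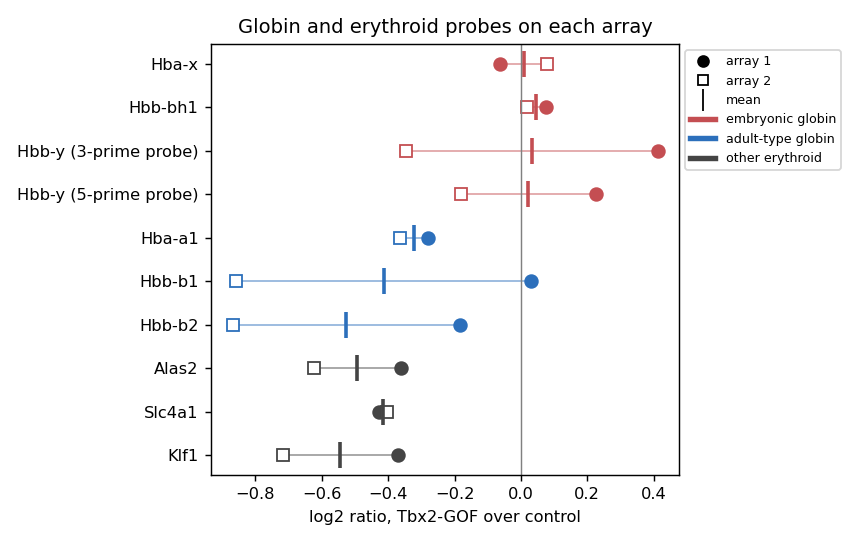
Log2 ratio of Tbx2-GOF over control (horizontal axis) for each of the 10 member probes on array 1 (filled circles) and array 2 (open squares); the short vertical bars are means of the 2 arrays. The embryonic globin means lie between 0.01 and 0.05, the adult-type globin means between -0.53 and -0.32 and the means of Alas2, Slc4a1 and Klf1 between -0.54 and -0.42; the 2 arrays differ most for Hbb-b1, Hbb-b2 and Hbb-y.

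The 3 embryonic globins had mean ratios near 0. Hba-x (probe at chr11:32177668-32177727 of mm9, plus strand) had Tbx2-GOF levels of 15.83 and 15.94 and control levels of 15.89 and 15.86 on arrays 1 and 2. The groups overlapped, and the ratios were -0.06 and 0.08 (0.01 ± 0.10, limma adjusted p = 1). Hbb-bh1, a β-like chain of the earliest yolk sac red cells (chr7:110990209-110990268, minus strand), had levels of 15.01 and 14.96 in Tbx2-GOF and 14.93 and 14.94 in control. Its ratios of 0.08 and 0.02 were the only pair above 0 among the members (0.05 ± 0.04, adjusted p = 1). The Tbx2-GOF levels lay narrowly above the control levels. Nothing is drawn from that order, since the share of all tested probes with it was not computed. With the software's processed signals the Hbb-bh1 ratios were 0.12 and -0.03.

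Hbb-y, which encodes the embryonic εy chain, was read by 2 probes that lie close together on chromosome 7 and gave the same pattern. The probe nearer the 3′ end of the transcript (chr7:111000268-111000327, minus strand) had levels of 17.99 and 17.63 in Tbx2-GOF and 17.58 and 17.97 in control. The other (chr7:111000448-111000507) had 17.66 and 17.48 against 17.44 and 17.66. On array 1 Tbx2-GOF was the higher extract and on array 2 the lower one, so that the groups overlapped for both probes. The ratios were 0.41 and -0.35 for the first (0.03 ± 0.54) and 0.22 and -0.18 for the second (0.02 ± 0.29), with limma adjusted p = 1 for both.

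The adult-type globins were lower in the mean, with unequal support from the 2 arrays. Hba-a1, the adult α chain (chr11:32183955-32184014, plus strand), had levels of 17.54 and 17.54 in Tbx2-GOF and 17.82 and 17.91 in control, without overlap. Its ratios were -0.28 and -0.37 (-0.32 ± 0.06, limma adjusted p = 0.560), and control was 1.25-fold above Tbx2-GOF. Hbb-b2, an adult β chain whose probe has no position in the files, had levels of 16.50 and 16.38 against 16.69 and 17.25. These did not overlap either, but the ratio was -0.18 on array 1 and -0.87 on array 2 (-0.53 ± 0.49, adjusted p = 0.389), so that control was 1.14-fold above Tbx2-GOF on array 1 and 1.83-fold on array 2. Hbb-b1, the other adult β chain (chr7:110961105-110961164, minus strand), had levels of 17.46 and 17.15 in Tbx2-GOF and 17.43 and 18.01 in control. Its mean of -0.41 ± 0.63 rested on array 2 alone, where the ratio was -0.86, while array 1 gave 0.03 (adjusted p = 0.729).

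The remaining globin-cluster genes had smaller mean ratios. The probe named Hba-a2, listed against the same adult α transcripts as the Hba-a1 probe, was at 0.11 on array 1 and -0.59 on array 2 (-0.24 ± 0.50, limma adjusted p = 0.956). The 2 adult α probes thus differed in sign on array 1, where the Hba-a1 probe was at -0.28. The probe named Hbq1, a theta-globin, was at -0.09 and -0.26, and the probe named F830116E18Rik, whose accession now belongs to Hbq1b, at -0.10 and -0.22. Of the 3 other genes of that list, Hbb-bt and Hbb-bs are not names in the scanner files, and Hbb-bh2 was not retained. The probe named Hbb-b1, whose transcript is now listed under Hbb-bt, was tested and is given above among the members.

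The 3 red cell genes outside the globin clusters were lower in Tbx2-GOF on both arrays. Klf1 (chr8:87428881-87428940, plus strand) had levels of 8.53 and 8.59 in Tbx2-GOF and 8.90 and 9.31 in control, without overlap. Its ratios were -0.37 and -0.72 (-0.54 ± 0.25, limma adjusted p = 0.229), and control was 1.46-fold above Tbx2-GOF. Alas2 (chrX:147004993-147005052, plus strand) had levels of 11.55 and 12.15 against 11.91 and 12.78; the Tbx2-GOF extract was the lower one within each array, although the Tbx2-GOF level of array 2 exceeded the control level of array 1. The Alas2 ratios were -0.36 and -0.62 (-0.49 ± 0.19, adjusted p = 0.263), or 1.41-fold in favour of control. Slc4a1 (chr11:102210256-102210315, minus strand) had levels of 9.91 and 10.27 against 10.34 and 10.67, with no Tbx2-GOF level above a control level. Its ratios, -0.43 and -0.40, were the closest to each other among the members (-0.42 ± 0.02, adjusted p = 0.332).

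**Figure D2:**
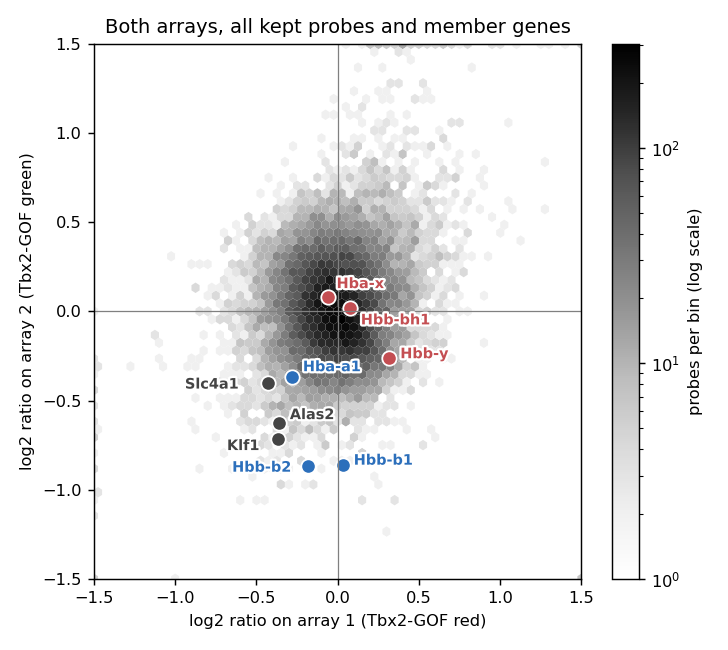
Log2 ratio of Tbx2-GOF over control on array 1 (horizontal) against array 2 (vertical) for all 26472 tested probes (grey bins, darker for more probes on a log scale; probes beyond the axes are drawn at the edge) and the 9 member genes (points; Hbb-y as the mean of its 2 probes). Hba-a1, Hbb-b2, Alas2, Slc4a1 and Klf1 lie in the lower left quadrant, Hba-x and Hbb-bh1 near the centre, and Hbb-b1 and Hbb-y below 0 on array 2 and above 0 on array 1.

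Embryonic and adult-type globins were compared by the median of each set of 3 genes. On arrays 1 and 2 the embryonic medians were 0.08 and 0.02 and the adult-type medians -0.18 and -0.86. The difference, embryonic minus adult-type, was 0.26 and 0.88 (0.57 ± 0.44), with the same sign on both arrays but an SD not far below its mean. With the mean of each set in place of its median the difference was 0.25 and 0.64 (0.45 ± 0.28). With Hba-a2 added to the adult-type genes, an alternative chosen after seeing the data, it was 0.15 and 0.75. Without any normalization the difference of medians was -0.04 on array 1 and 1.10 on array 2, so that its sign on array 1 turned. No test was made of this contrast, since the genes were chosen with results known and 2 arrays cannot give a permutation p under the threshold. The sets overlapped on array 1, where Hbb-b1 at 0.03 exceeded Hba-x at -0.06, and did not overlap on array 2, where the lowest embryonic value was -0.26 and the highest adult-type value -0.37.

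Because most globin spots were among the brightest on the array, their ratios depend on the curve that removes dye bias by brightness. Before that step Hbb-y was at 1.22 and 1.00 on array 1 and at -1.24 and -1.03 on array 2, and Hba-a1 was at 0.52 and -1.25. The curve moved the globin probes by between -0.40 and -0.81 on array 1 and between 0.42 and 0.90 on array 2. It moved Alas2, Slc4a1 and Klf1 by no more than -0.22 and 0.14. Among the 200 brightest tested probes, the 195 that were not globins still had medians of 0.21 and -0.20 on arrays 1 and 2 after the step. Hbb-y, at 0.32 and -0.26 as the mean of its probes, lay on the same sides as that median, and its departure from it was not tested. With the software's own processed signals in place of this curve the medians of these probes were 0.05 and -0.04, and Hbb-y was at 0.19 and -0.11.

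A direct difference of 2 globins of like brightness within 1 array is little affected by the curve. Hbb-y exceeded Hbb-b1 by 0.29 on array 1 and 0.60 on array 2 (0.44 ± 0.22), and by 0.32 and 0.58 with no normalization at all. Hbb-y exceeded Hba-a1 by 0.60 and 0.10 (0.35 ± 0.35), and without normalization by 0.60 and 0.11. For Hba-x less Hbb-b2, which are less alike in brightness, the differences were 0.12 and 0.95, and 0.01 and 1.10 without normalization. These 3 pairs were not planned and are only some of those that can be formed. In each of them the embryonic globin had the higher ratio on both arrays, and which array showed the wider gap differed between the pairs. Outside them, Hba-x at -0.06 lay below Hbb-b1 at 0.03 on array 1.

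**Figure D3:**
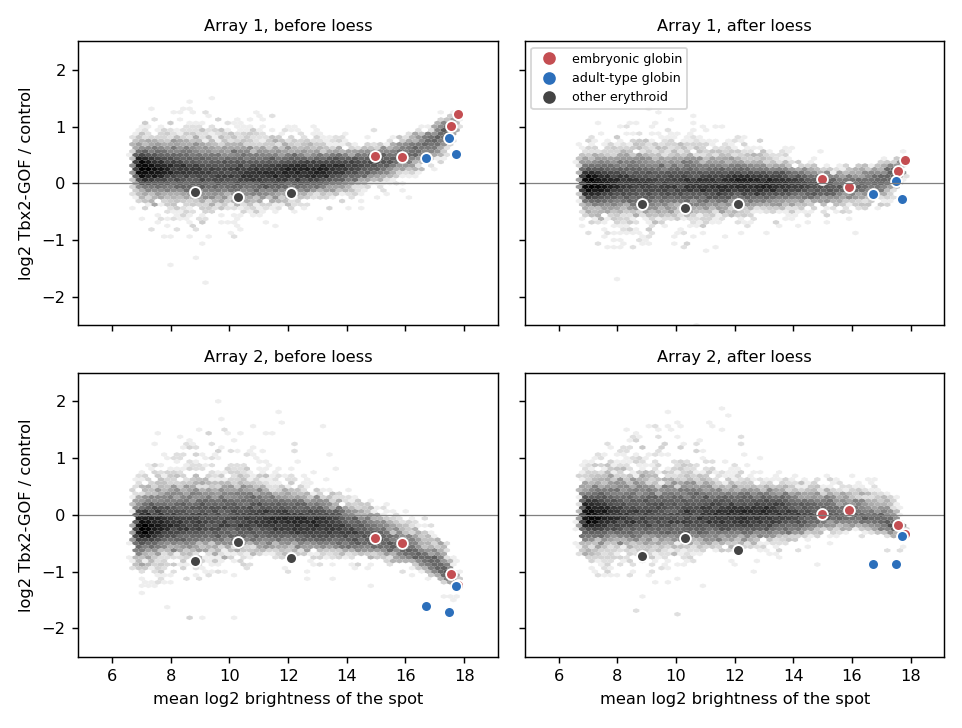
Log2 ratio of Tbx2-GOF over control (vertical) against mean log2 brightness of the spot (horizontal) on array 1 (top) and array 2 (bottom), before (left) and after (right) the loess step, for all tested probes (grey bins) and the member probes (coloured points). Before the step the bright end bends upward on array 1 and downward on array 2, taking Hbb-y to 1.22 and -1.24; after it the adult-type Hbb-b1 and Hbb-b2 stand lowest among the members on array 2, at -0.86 and -0.87.

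The wider red cell programme was described through 7 lists with 85 genes, of which 78 were tested; limma called 0 of 78. At an unadjusted p under 0.05, 11 were lower and 1 was higher in Tbx2-GOF, against 3.39% and 5.12% of all tested probes. On both arrays 28 were lower (35.9%) and 21 higher (26.9%), against 24.8% and 25.1% of all tested probes, and their median of 0.00 equalled that of all probes to 2 decimals.

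Of the 16 tested red cell membrane and skeleton genes, 9 were lower and 3 higher on both arrays, and the median was -0.12. None was called by limma, and 5, all lower, had an unadjusted p under 0.05, against 3.39% of all tested probes. The water channel gene Aqp1 was at -0.29 and -0.87 (limma adjusted p = 0.272), and Rhd, of the Rh blood group complex, at -0.24 and -0.84 (adjusted p = 0.319). Aqp1 is also made by endothelial cells.

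Of 14 erythroid transcription factor genes 3 were lower and 5 higher on both arrays, with a median of 0.09 and none called. Gata1, the central factor of red cell differentiation, was at -0.21 and -0.68 (limma adjusted p = 0.419). Gfi1b, a repressor needed for red cell and platelet formation, was at -0.63 and -0.18 (adjusted p = 0.495), and was well above background in Tbx2-GOF on 1 of 2 arrays. Lyl1, which is also active in endothelial and other blood cells, was at 0.64 and 0.35 (adjusted p = 0.267).

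Heme synthesis genes other than Alas2 were close to 0: of 11, 3 were lower and 1 higher on both arrays, the median was -0.03, and none was called or had an unadjusted p under 0.05. Uros was at -0.13 and Cpox at -0.04 in the mean, and Alas1, the form of the Alas2 enzyme used outside red cells, at 0.11, although its other probe had the opposite sign. In iron uptake and haemoglobin assembly 3 of 9 were lower and 2 higher on both arrays (median -0.08, none called). Ahsp, the chaperone of free α-globin, was at -0.12 and -0.66 (limma adjusted p = 0.569), Slc25a37, the mitochondrial iron importer mitoferrin, at -0.28 in the mean, and Steap3, a ferrireductase, at -0.23.

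Among 15 red cell enzymes and maturation genes 5 were lower and 6 higher on both arrays, with a median of 0.01 and none called. Trim10 was at -0.40 (limma adjusted p = 0.398), Blvrb, a biliverdin reductase, at -0.34 (adjusted p = 0.654) and the carbonic anhydrase gene Car1 at -0.32 (adjusted p = 0.582). In erythropoietin and KIT signalling 3 of 10 were lower and 4 higher (median 0.04, none called). Kitl, the KIT ligand, which is made by stromal cells rather than red cells, was at -0.62 and -0.54 (adjusted p = 0.160). Epor, the erythropoietin receptor, was at -0.15 and its target gene Cish at 0.19 (adjusted p = 1 and 0.956).

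Other cell types that could carry or accompany blood were measured beside the members. Foetal liver and plasma protein genes had the largest ratios of the 4 lists measured: 7 of 12 tested genes fell in Tbx2-GOF, 11 of 12 were lower on both arrays and the median was -1.07. Afp, the foetal plasma carrier protein of liver and yolk sac, fell to -2.95 ± 0.29 (limma adjusted p = 0.0023), Alb, albumin, to -2.15 ± 0.34 and Serpina6 to -2.15 ± 0.28 (both adjusted p = 0.0058). Serpina1a was at -1.46 (adjusted p = 0.0207) and Ambp at -1.03 (adjusted p = 0.0347), while Ahsg (-1.86, adjusted p = 0.0134) and Ttr (-1.11, adjusted p = 0.0421) were well above background in Tbx2-GOF on 1 of 2 arrays. The normalized levels of the list, taken off the log scale, summed to 6618 and 6760 in Tbx2-GOF and to 10015 and 12729 in control. Such sums are weighted to the brightest probes. Here those were Trf and Apoa2, which had the smallest mean ratios of the list (-0.15 and -0.36). Of the list's 12 genes 8 were well above background in both RNAs on both arrays. The others, Ahsg and Ttr among them, entered the test through control alone, so the filter itself favoured a lower value in Tbx2-GOF. They are included in the 7 calls, the 11 of 12 or the median, which for them are no independent support. These calls were lost with the deposited value table, the software's processed signals and median centring, under which no probe on the array was called lower. The part of liver RNA in the values of the red cell genes was not tested.

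Endothelial markers lay on the other side of 0, with 12 of 14 higher on both arrays, none lower on both and a median of 0.26; limma called none. Plvap was at 0.41 (limma adjusted p = 0.354), Emcn at 0.37 (adjusted p = 0.427) and Cldn5, a tight junction gene, at 0.36 (adjusted p = 0.467). The normalized levels of the list, summed in the same way, were 103130 and 107914 in Tbx2-GOF and 80201 and 93661 in control. Ramp2, the brightest, weighed most in these sums. Megakaryocyte and platelet markers had a median of 0.02 over 8 tested genes, with 1 lower and 3 higher on both arrays, none called, and summed normalized levels of 15456 and 17595 against 13368 and 17561. Ppbp was at 0.38 (adjusted p = 0.457), Gp9 at 0.19 and Itga2b at -0.07. Macrophage markers had a median of 0.10, with 2 of 14 lower and 5 higher on both arrays and summed normalized levels of 61586 and 72076 against 57464 and 87860. Vcam1, an adhesion gene that is not limited to macrophages, was the 1 of them to fall (-0.93 and -1.41, adjusted p = 0.0378), a call lost under the same 3 settings as the liver calls, while Maf was at -0.30 and Aif1 at 0.26. The part of these cells in the values of the red cell genes was not tested.

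**Figure D4:**
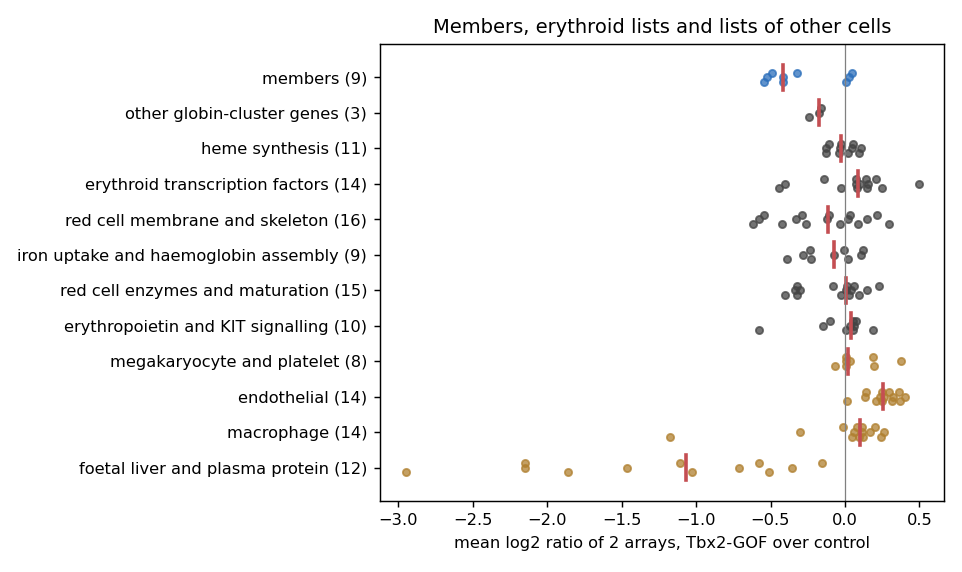
Mean log2 ratio of Tbx2-GOF over control (horizontal) of each tested gene in the member set (blue), the 7 erythroid lists (grey) and the 4 lists of other cells (ochre), with the number of genes in brackets; red bars are list medians. The member median is -0.41, the erythroid list medians lie between -0.17 and 0.09, the foetal liver and plasma protein median is -1.07 and the endothelial median 0.26.

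In the mean of the 2 arrays, the embryonic globins stayed near 0 and the other members below it when the signals were processed in other ways. Over 8 ways of computing the ratios, Klf1 ranged from -0.67 to -0.51, Alas2 from -0.50 to -0.48 and Slc4a1 from -0.47 to -0.39, and these 3 were lower on both arrays in all 8. Hbb-b2 ranged from -0.61 to -0.50 and Hba-a1 from -0.39 to -0.32, each lower on both arrays in 7 of 8. Hbb-b1 ranged from -0.49 to -0.38 but was lower on both arrays in 2 of 8, those based on the software's processed signals. These 2, the processed signals and the deposited value table, gave the same values for every member and so are not separate checks. With median centring Hbb-b1 was at 0.53 and -1.51. The embryonic globins lay between -0.05 and 0.05 in the mean, and Hba-x and Hbb-y were slightly below 0 with median centring. The Hbb-y mean joins values of opposite sign on the 2 arrays, 0.32 and -0.26 as reported and 0.85 and -0.93 with median centring. Hbb-bh1 was at 0.12 and -0.03 with the processed signals, and so not higher on both arrays there. With median centring, which leaves the bend at the bright end in place, Hba-a1 was at 0.25 and -1.04 and Hbb-b2 at 0.19 and -1.40, so that 3 in place of 5 members were lower on both arrays. No member passed the adjusted threshold under any setting tried, and the lowest adjusted p of a member in a fit lay between 0.187 and 0.793.

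**Figure D5:**
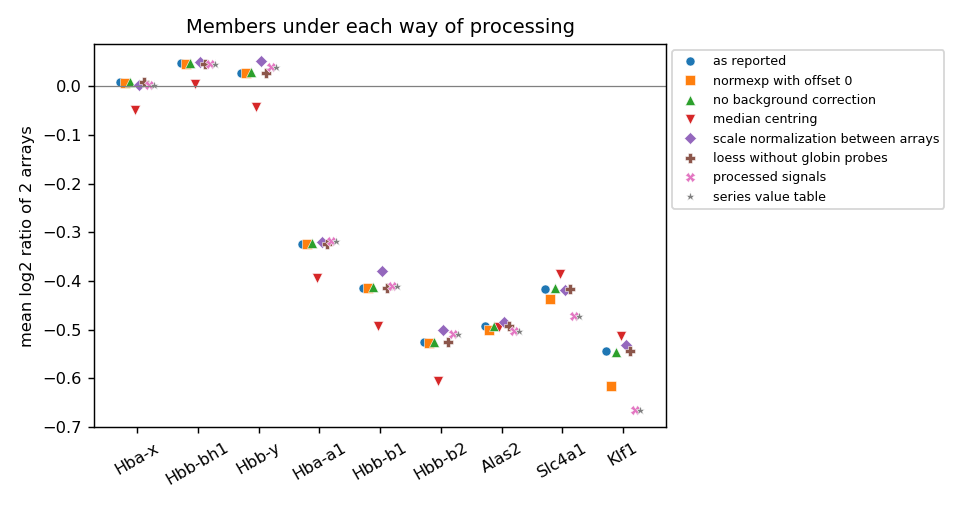
Mean log2 ratio of Tbx2-GOF over control (vertical) of each member gene under 8 ways of computing the ratio (symbols). The processed signals and the deposited value table gave the same values. The embryonic globins stay between -0.05 and 0.05 and the other members between -0.67 and -0.32; median centring gives the lowest value for each of the 6 globins and the highest for Slc4a1 and Klf1.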

How the data were processed

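Total RNA was extracted with peqGOLD RNAPure, amplified and labelled, per the labels' protocols. The submitters' processing notes name Agilent Feature Extraction 10.7.3.1. Mean spot and local background signals are intensity values as scanned, per the file headers. The software's log10 ratio of red over green is taken from its background-subtracted, dye-normalized signals, per the file headers. In the deposited value table each value is a score, a signed ratio with median 1 on both arrays. Its positive values mean higher in Tbx2-GOF: over probes above background in both channels, 99.6% of values on each array matched that log ratio, turned by the dye labels, within 0.01 (log10). Its scale and centring are not stated.

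Here limma 3.58.1 (R 4.3.3) applied normexp correction (offset 50) and loess within arrays (span 0.3). Control spots and the 209 and 391 outlier spots had weight 0. Levels and their overlap were taken after a further quantile step between arrays (limma's Aquantile), which does not enter the ratios. Of 39429 probes, 26472 with either RNA well above background on both arrays were tested with lmFit and eBayes (1 residual and 6.69 prior degrees of freedom), two-sided; 12957 were left out. The script was tested on simulated data, where it recovered the ratios put in but made more false calls than the adjusted threshold allows. Calls and adjusted p-values are to be read with that limit, whose cause was not tested. Median green signals were 348 and 382 and median red signals 452 and 449; the number of arrays limits the precision. Every probe of the members is reported. From the pathway and other-cell lists, genes past the threshold are named, with the 3 of largest mean ratio among those on 1 side on both arrays; the brightest retained probe stands for a gene. An item that this rule names is not reported here. Members and lists were chosen with earlier results of these data known. Probe positions are on mm9, as in the files; exon and UTR positions, and the planned comparison of globin proteins, were not analysed here.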

Additional observations from a re-analysis of the deposited data

How the results depend on the processing

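Limma called 111 probes over the whole array, 65 higher and 46 lower. Median centring gave 0 (0 higher, 0 lower), as did the deposited value table, and the processed signals gave 2 (2 higher, 0 lower). Scaling between arrays gave 184 (113 higher, 71 lower), no filter on dim probes 225 (135 higher, 90 lower) and a trended, robust variance 178 (109 higher). Offset 0, no background correction, the strict filter, 1 probe per gene and loess without globin probes (chosen after seeing the data) stayed within 1.5 times. Members at an unadjusted p under 0.05 numbered 2 to 5, and none was called.

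With median centring, members lower on both arrays numbered 3 in place of 5, Hba-x turned to -0.050 and the Hbb-y probes to -0.039 and -0.045. That setting shifts each array by a constant and leaves the bend at the bright end in place. Embryonic minus adult-type kept its sign in the mean (0.49 to 0.57 over 8 settings), but was -0.04 on array 1 under median centring. The processed signals and the deposited value table gave the same values for it. Single arrays, which are values with no test, gave -0.063 to 0.080 for Hba-x, -0.86 to 0.032 for Hbb-b1, -0.35 to 0.41 and -0.18 to 0.22 for the Hbb-y probes, and 0.26 to 0.88 for embryonic minus adult-type. Each ratio compares the 2 extracts of 1 array, so the fit is already paired by array. With 2 arrays of opposite dyes, a difference between arrays and a dye effect cannot be told apart.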
